A study of Mus musculus with 6 samples.

Results

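The genes described here are 10 of the transforming growth factor beta (TGF-beta) and activin axis, taken by symbol from the 22377 genes of the count table. They are the ligand genes Tgfb1, Tgfb2, Tgfb3, Inhba and Gdf15, the receptor genes Tgfbr1 and Tgfbr2, the signal transducer Smad3, the inhibitor Smad7 and the target gene Tgfbi. RNA was sequenced from tumor-associated macrophages (TAMs) of subcutaneous Lewis lung carcinoma (LLC) tumors, a mouse lung carcinoma line implanted in mice of both sexes aged 6 to 8 weeks. The methods of the study give the sort as CD45+ CD11b+ F4/80+ cells and the genotypes as Npm1+/+ and Npm1+/-, whereas the sample labels call the material tumor tissue, name 3 libraries wt and the other 3 ko with the treatment knockdown. How the Npm1 allele was made is not given in the sources used here. The question was which genes differ between the TAMs of these genotypes.

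TGF-beta ligands are secreted as latent dimers, which integrins, thrombospondin and proteases release. An active ligand binds the type II receptor TGFBR2, which recruits and phosphorylates the type I receptor TGFBR1, and this in turn phosphorylates SMAD2 and SMAD3. Activin A, a dimer of the Inhba product, reaches the same SMAD proteins through activin receptors, and SMAD7 is an inhibitor that the pathway itself induces. Macrophages are a known source of TGF-beta in tumors, where it restrains T cells and stimulates fibroblasts.

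Total counts lay between 36550775 and 38147320 per library, and 13884 genes passed the filter on low counts. Npm1, the targeted gene, was not lower in the libraries labelled knockdown (441, 499 and 343 CPM, counts scaled to the library size) than in those labelled wt (142, 380.2 and 381 CPM), so the groups are named by their labels throughout. Library wt 1 stood apart, at -108 on a first principal component that held 67.99% of the variance, with the other 5 libraries between -4.54 and 52.0. The summed CPM of 12 macrophage markers was between 20450.3 and 26019 in libraries labelled wt and between 12210.0 and 21127 in those labelled knockdown. All 12 had a lower estimate in the latter, with 7 not overlapping (12.6% of all genes were lower without overlap) and a median log2 fold change of -0.53. In bulk RNA, fewer cells of a type and less RNA per cell cannot be told apart. The summed CPM of 10 fibroblast markers was between 32.7 and 491 in libraries labelled wt and between 369 and 715 in those labelled knockdown, and that of 6 T cell markers between 13.8 and 69.9 and between 56.2 and 149.5. All 5 natural killer (NK) cell markers had higher estimates (24.9 to 46.1 against 38.2 to 115 CPM in sum), and all 5 tested of 6 neutrophil markers had lower ones, with a median log2 fold change of -0.78 (1119 to 1434 against 532 to 1138 CPM for the sum of all 6). The sum of 7 carcinoma and epithelial markers was 36.1 to 138 against 129 to 192 CPM. Krt8 alone was 9.90 to 117 against 105 to 171 CPM. Of the 4 tested genes of this list, 2 had higher and 2 lower estimates. The gate described in the methods would remove fibroblasts, carcinoma cells and most T, NK and B cells. Of 6 platelet markers, 3 were high enough to be tested, with summed levels of all 6 from 339 to 433 CPM and from 289.7 to 463 CPM.

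Levels between genes can be compared only per length, so FPKM (fragments per kilobase of gene length, scaled to the library total) is used for their order. Tgfbi had the highest level, with a mean over the 6 libraries of 866 FPKM, followed by Tgfb1 at 174 FPKM. Both stood clear of the gene below them in every library. Tgfbr2 (16.8 FPKM), Smad3 (14.7), Inhba (11.1), Smad7 (9.23), Gdf15 (6.01) and Tgfbr1 (5.34) followed, and in this stretch each gene overlapped its neighbor. Tgfb3 (3.29 FPKM) lay below Tgfbr1 without overlap, and Tgfb2 (0.0229 FPKM) was far below all others. Of the summed FPKM of the 3 TGF-beta isoforms, Tgfb1 made up between 96.4% and 99.2% in each library.

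**Figure D1:**
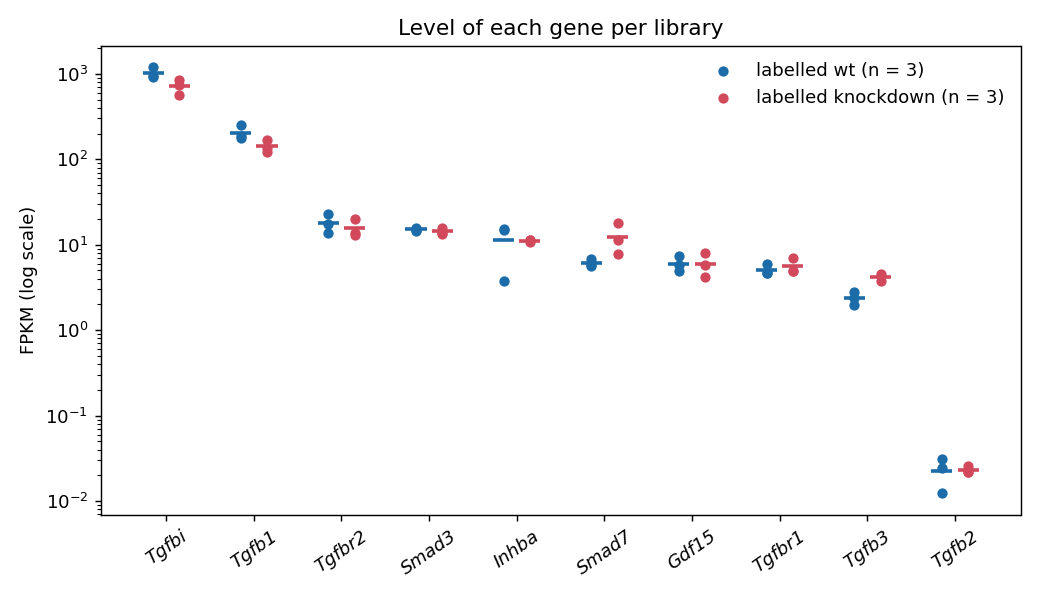
FPKM on a log axis for each gene in each library, with points for libraries and a bar for the mean of 3 libraries per label. Tgfbi and Tgfb1 lie above the other genes and Tgfb2 below them, and a single wt library lies apart for Inhba.

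No gene of the axis passed the threshold of the main test (edgeR's quasi-likelihood test, adjusted p under 0.05 over all genes tested), and neither did any other gene, so that 0 of 9 tested members and 0% of the 13884 genes were called. At an unadjusted p under 0.05, Tgfb3 and Smad7 were higher in the libraries labelled knockdown, against 6.9% of all genes, and Tgfb1 and Tgfbi were lower, against 8.31%. No library of either label reached into the range of the other for Tgfb3 and Smad7, which were higher (13.3% of all genes), and for Tgfb1, Tgfbi and Smad3, which were lower (12.6%). The median log2 fold change of the 9 tested members was -0.18, beside 0.02 over all genes tested. For a single gene, the smallest two-sided p that an exact permutation test of 3 against 3 libraries can give is 0.1, and it was 0.1 for these 5 genes.

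**Figure D2:**
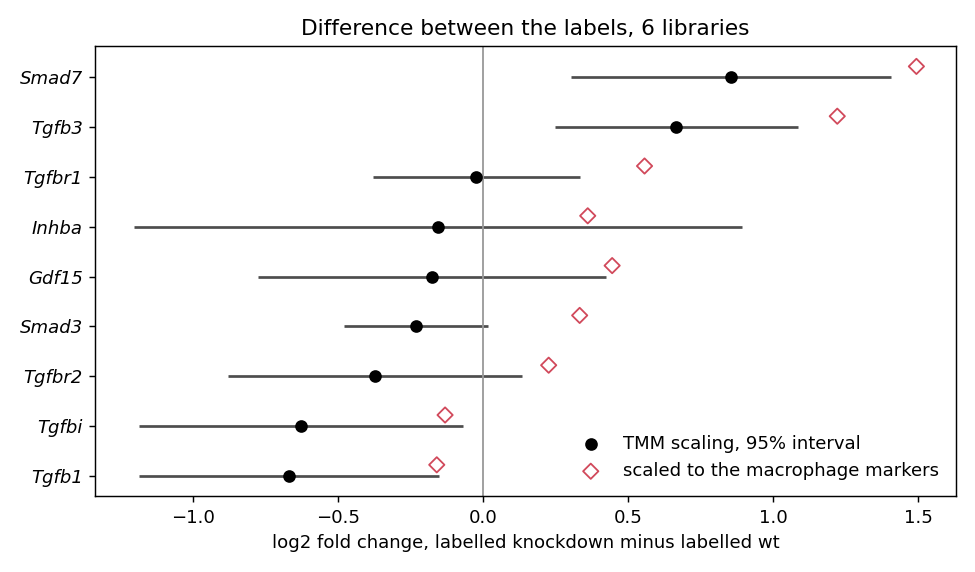
Log2 fold change of the 9 tested genes, labelled knockdown minus labelled wt, over 6 libraries. Black points and lines give the estimate and 95% interval with TMM scaling, and open diamonds the estimate when libraries are scaled to the 12 macrophage markers, which moves every gene to the right.

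Tgfb1, the main isoform in these cells, lies on chromosome 7 of GRCm38 (25687002 to 25705077, plus strand) and overlaps no other annotated gene. Its level was 594, 437 and 398 CPM in wt 1, 2 and 3 and 287, 235 and 377 CPM in knockdown 1, 2 and 3. Each library labelled knockdown was below each labelled wt, with knockdown 3 close to wt 3. The means were 476 ± 104 (SD, n = 3) and 299.7 ± 71.9 CPM (SD, n = 3). This gave a log2 fold change of -0.67 (SE 0.22, 95% interval -1.18 to -0.15, adjusted p = 0.328 in edgeR).

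Tgfbi encodes a secreted matrix protein named for its induction by TGF-beta, and lies on chromosome 13 (56609523 to 56639562, plus strand) with no overlapping gene. It measured 3477, 2718 and 2518 CPM in wt 1, 2 and 3 and 1900.3, 1354 and 2388 CPM in knockdown 1, 2 and 3. The order of the 6 libraries was the same as for Tgfb1, with wt 1 highest and knockdown 2 lowest. The log2 fold change was -0.63 (SE 0.24, 95% interval -1.19 to -0.07, adjusted p = 0.328 in edgeR).

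The macrophage markers moved with both genes, and knockdown 2 had the lowest marker sum as well. Relative to the mean log2 CPM of the 12 markers, Tgfb1 stood at 0.29, -0.10 and -0.17 in wt 1, 2 and 3 and at -0.16, -0.09 and -0.16 in knockdown 1, 2 and 3. Tgfbi stood at 2.84, 2.54 and 2.49 and at 2.57, 2.44 and 2.50. On this scale the groups overlapped for both genes. Neutrophil markers were also lowest in knockdown 2. With the libraries scaled to these macrophage markers, a choice made after the data were examined, the log2 fold change was -0.16 (SE 0.19) for Tgfb1 and -0.13 (SE 0.16) for Tgfbi, while the median of all genes moved from 0.02 to 0.58. On that scaling the groups did not overlap for 2 members, Tgfb3 and Smad7, both higher, beside 35.9% of all genes. Whether the share of macrophage RNA accounts for the lower Tgfb1 and Tgfbi was not tested.

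The promoters of Tgfb1 and Tgfbi are shown because these genes were the highest of the axis and had the same order of libraries. RefSeq promoters on GRCm38.p6 were found for 8 of the 10 genes, and those of Tgfb3 and Smad7 were not available to search. The stretches run up to the first annotated exon, chr7:25686752-25687001 for Tgfb1 (250 bases) and chr13:56609336-56609522 for Tgfbi (187 bases), both plus strand. Capitals mark CAGAC, the core of the SMAD-binding element, on either strand (GTCTG on the strand shown).
Tgfb1: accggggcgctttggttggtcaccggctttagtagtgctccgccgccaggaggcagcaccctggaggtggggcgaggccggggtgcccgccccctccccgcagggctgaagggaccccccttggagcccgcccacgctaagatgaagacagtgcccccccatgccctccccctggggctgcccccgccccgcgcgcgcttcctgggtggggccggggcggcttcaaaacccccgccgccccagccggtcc
Tgfbi: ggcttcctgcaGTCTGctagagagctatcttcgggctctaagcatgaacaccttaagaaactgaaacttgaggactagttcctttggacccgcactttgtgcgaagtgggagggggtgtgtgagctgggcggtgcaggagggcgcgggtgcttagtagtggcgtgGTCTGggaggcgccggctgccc

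The Tgfbi stretch holds 2 such matches and that of Tgfb1 holds 0. Among the 250 bases before the start of 32851 RefSeq promoters, 42.2% hold at least 1 match, so that a match is frequent. The STAT motif TTCNNNGAA, searched because the study concerns STAT3, was found in 0 of the 10 promoters of these 8 members and in 7.02% of all promoters. With so few promoters, 0 cannot be told apart from that share. These matches describe letters only.

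Tgfb3 was the isoform that was higher in the libraries labelled knockdown. It measured 7.14, 8.74 and 9.57 CPM in wt 1, 2 and 3 and 13.8, 13.3 and 13.3 CPM in knockdown 1, 2 and 3. The 3 libraries labelled knockdown lay close together and above each labelled wt, with means of 13.5 ± 0.301 and 8.48 ± 1.23 CPM (SD, n = 3). The log2 fold change was 0.67 (SE 0.18, 95% interval 0.25 to 1.08, adjusted p = 0.328 in edgeR), against 1.22 (SE 0.34, adjusted p = 0.110) with marker scaling, which moves all genes upward. Tgfb3 (chromosome 12, 86056745 to 86079041, minus strand) overlaps exons of 2 genes on the opposite strand, and the counting is not stated to use strand.

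Since both isoforms come from the same library, their ratio does not depend on the scaling. With Tgfb1 lower and Tgfb3 higher without overlap in CPM, its groups had to separate, so the ratio is no further support. Tgfb1 exceeded Tgfb3 in FPKM by 128-fold, 77.0-fold and 64.1-fold in wt 1, 2 and 3 and by 32.0-fold, 27.2-fold and 43.8-fold in knockdown 1, 2 and 3, without overlap. Accordingly, the share of Tgfb3 in the summed isoforms was at most 1.54% in the libraries labelled wt and at least 2.23% in those labelled knockdown. Tgfb3 is also a product of fibroblasts, which the sort would remove but whose markers were detected. The fibroblast sum was 32.7, 491 and 305 CPM in wt 1, 2 and 3 and 715, 615 and 369 CPM in knockdown 1, 2 and 3. Most of this sum was Col3a1, at 19.0, 426 and 245 CPM in wt 1, 2 and 3. In knockdown 1, 2 and 3 Col3a1 was 604, 474 and 308 CPM. The sum of carcinoma and epithelial markers, mostly Krt8 in these libraries, was also highest in knockdown 1 and 2. The part of these cells in the difference was not tested.

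Tgfb2 had 4, 10 and 8 counts in wt 1, 2 and 3 and 7, 8 and 7 counts in knockdown 1, 2 and 3. These few counts were below the filter, and no difference was detectable at this depth.

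Inhba encodes the subunit of activin A. Its level was 58.3, 237 and 218 CPM in wt 1, 2 and 3 and 157, 135 and 169 CPM in knockdown 1, 2 and 3. All libraries labelled knockdown lay between wt 1 and the other libraries labelled wt, so the spread of the wt group, 171 ± 98.0 CPM (SD, n = 3), covered the other group, 154 ± 17.2 CPM (SD, n = 3). The log2 fold change was -0.15 (SE 0.45, 95% interval -1.20 to 0.89, adjusted p = 0.853 in edgeR), and its sign turned without wt 2 (0.15), without wt 3 (0.04) and with marker scaling (0.36). Without wt 1 it was -0.57. The Inhba estimate thus depends on wt 1.

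Of the 33 ligand genes of the superfamily that were listed, members included, 25 were in the table and 11 were tested. Of these, 6 were higher, 5 lower and 0 called, with a median log2 fold change of 0.56, beside 0.02 over all genes tested. The list median was the value of Bmp2, a gene of few counts that was at most 0.81 CPM. Beyond the members, no ligand reached the mean level of Tgfb3. Gdf3, a ligand of early embryos that is also found in macrophages, had a mean of 1.51 FPKM and a log2 fold change of -0.88 (SE 0.37, adjusted p = 0.328 in edgeR). Gdf11 had a mean of 0.328 FPKM and a log2 fold change of 1.07 (SE 0.47, adjusted p = 0.329 in edgeR), without overlap between the groups. Bmp7, a bone morphogenetic protein, was at most 0.61 CPM, and Lefty1, an antagonist of Nodal, had a log2 fold change of -0.22 (SE 0.47).

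Tgfbr1, the type I receptor, had similar levels in both groups. It measured 32.1, 31.9 and 39.1 CPM in wt 1, 2 and 3 and 30.2, 38.7 and 32.5 CPM in knockdown 1, 2 and 3. For Tgfbr1 the log2 fold change was -0.02 (SE 0.15, 95% interval -0.38 to 0.33, adjusted p = 0.938 in edgeR), and its sign changed with the scaling.

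Tgfbr2, the type II receptor, measured 117, 70.2 and 85.1 CPM in wt 1, 2 and 3 and 59.1, 84.6 and 66.9 CPM in knockdown 1, 2 and 3. The groups overlapped, with wt 1 highest. The log2 fold change was -0.37 (SE 0.22, 95% interval -0.88 to 0.13, adjusted p = 0.375 in edgeR), against -0.15 without wt 1 and 0.23 with marker scaling. Per length, Tgfbr2 exceeded Tgfbr1 by 4.91-fold in wt 1 and by 2.62-fold to 2.95-fold in the other 5 libraries.

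Among 18 listed receptors and co-receptors, 15 were tested, with 9 higher, 6 lower and 0 called by edgeR, and a median log2 fold change of 0.35. Acvrl1, a type I receptor for bone morphogenetic proteins that also takes part in TGF-beta signaling, measured 74.3, 56.0 and 53.8 CPM in wt 1, 2 and 3 and 41.2, 27.3 and 45.1 CPM in knockdown 1, 2 and 3. Each library labelled knockdown was below each labelled wt (log2 fold change -0.70, SE 0.22, adjusted p = 0.328 in edgeR). Acvrl1 (12.9 FPKM) and the activin receptors Acvr1b (9.27 FPKM) and Acvr2a (8.58 FPKM) were the most abundant beyond the members. The log2 fold changes of the latter were -0.47 (SE 0.21) and 0.14 (SE 0.21), and that of the co-receptor Eng was 0.46 (SE 0.20). Amhr2, the receptor of anti-Müllerian hormone, had 8, 20 and 16 counts in wt 1, 2 and 3 and 85, 55 and 58 counts in knockdown 1, 2 and 3. Its log2 fold change was 2.05 (SE 0.46, adjusted p = 0.328 in edgeR). DESeq2 called it with an adjusted p of 0.0484, together with 0.263% of the genes it tested over 6 libraries and 0 of the members.

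Smad3, the transducer of both TGF-beta and activin, differed little. It measured 93.9, 88.3 and 82.1 CPM in wt 1, 2 and 3 and 73.0, 76.3 and 75.9 CPM in knockdown 1, 2 and 3. The groups did not overlap, yet the log2 fold change was only -0.23 (SE 0.11, 95% interval -0.48 to 0.02, adjusted p = 0.331 in edgeR). In the deposited FPKM, which are scaled by total count alone, the groups overlapped (14.6 to 15.8 against 13.3 to 15.8), and with marker scaling the estimate turned to 0.33.

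Smad7, the inhibitor that competes with SMAD3 for the receptor and marks it for degradation, had the largest estimate among the members over 6 libraries, a rank that it lost to Tgfb3 (0.67) without knockdown 2. It lies on chromosome 18 (75367529 to 75395935, plus strand) with no overlapping gene. Its level was 27.8, 26.9 and 30.4 CPM in wt 1, 2 and 3 and 47.6, 70.2 and 35.9 CPM in knockdown 1, 2 and 3. The libraries labelled wt lay close together, and each labelled knockdown was above them, knockdown 2 by the most. The means were 28.4 ± 1.80 and 51.2 ± 17.4 CPM (SD, n = 3). Smad7 had a log2 fold change of 0.85 (SE 0.24, 95% interval 0.30 to 1.41, adjusted p = 0.328 in edgeR), against 0.55 without knockdown 2 and 1.49 with marker scaling.

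The ratio of Smad7 to Smad3 in FPKM, which no scaling changes, was 0.369, 0.379 and 0.460 in wt 1, 2 and 3 and 0.812, 1.15 and 0.588 in knockdown 1, 2 and 3. The groups did not overlap in this ratio. With Smad7 higher and Smad3 lower without overlap in CPM, this was fixed beforehand and is no further support. T cells, which the sort would remove, also express Smad7. Knockdown 2 had the highest marker sums of T cells (149.5 CPM), NK cells (115 CPM) and B cells (45.2 CPM). The B cell sum was 31.6, 3.97 and 28.8 CPM in wt 1, 2 and 3. In knockdown 1 and 3 it was 9.87 and 8.67 CPM, and 2 B cell markers had higher and 2 lower estimates. The T cell sum was 13.8, 24.6 and 69.9 CPM in wt 1, 2 and 3. In knockdown 1, 2 and 3 it was 63.7, 149.5 and 56.2 CPM. The part of lymphocyte RNA in the Smad7 difference was not tested.

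**Figure D3:**
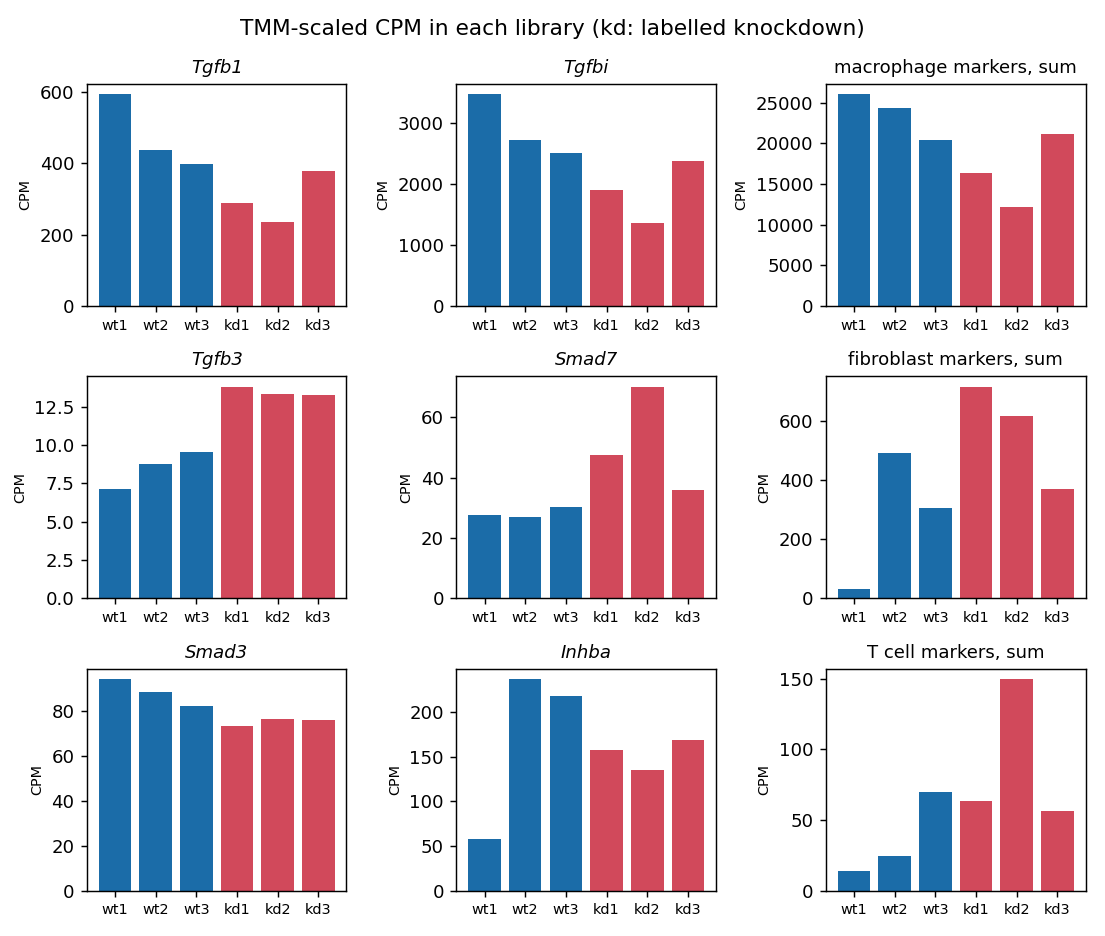
TMM-scaled CPM in each library, with bars from 0, for 6 genes of the axis and for the summed markers of macrophages, fibroblasts and T cells. Tgfb1 and Tgfbi are highest in wt1 and lowest in kd2, Tgfb3 and Smad7 are higher in kd1 to kd3 than in wt1 to wt3, and the fibroblast sum is lowest in wt1.

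Of 21 SMAD genes and regulators, 20 were tested, with 13 higher, 7 lower and 0 called, and a median log2 fold change of 0.12. The most abundant beyond the members were the corepressors Tgif1 (46.0 FPKM) and Skil (44.3 FPKM) and the common partner Smad4 (15.7 FPKM), with log2 fold changes of 0.19 (SE 0.14), 0.10 (SE 0.23) and -0.04 (SE 0.13). Tgif2, a corepressor related to Tgif1, measured 8.58, 12.4 and 9.36 CPM in wt 1, 2 and 3 and 16.4, 23.6 and 15.0 CPM in knockdown 1, 2 and 3, without overlap (log2 fold change 0.86, SE 0.24, adjusted p = 0.328 in edgeR). Exons of genes on the opposite strand overlap Tgif2. The estimates of the corepressor Ski, -0.21 (SE 0.10), and of Zfyve9, which presents SMADs to the receptor, -0.45 (SE 0.21), were below 0.

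Of 11 genes of latency and activation, 10 were tested, with 7 higher, 3 lower and 0 called, and a median log2 fold change of 0.60. The 3 lower genes were the most abundant of the list. Thbs1, thrombospondin 1, an activator of latent TGF-beta, had a mean of 4630.5 FPKM and a log2 fold change of -0.56 (SE 0.27, adjusted p = 0.338 in edgeR). Furin, the protease that cleaves the TGF-beta precursor, had a mean of 77.2 FPKM and a log2 fold change of -0.37 (SE 0.15, adjusted p = 0.328 in edgeR). Nrros, which anchors latent TGF-beta on the surface of myeloid cells, measured 334, 239.8 and 214 CPM in wt 1, 2 and 3 and 151, 110.2 and 175 CPM in knockdown 1, 2 and 3, without overlap (log2 fold change -0.85, SE 0.23, adjusted p = 0.328 in edgeR). The order of libraries for Nrros was that of Tgfb1, and the macrophage markers moved with it. Among the 7 higher genes, Ltbp1 to Ltbp4, which encode latent TGF-beta binding proteins of the matrix, were lowest in wt 1, as was the fibroblast sum, and Ltbp4 was 1.41 CPM there against at least 13.3 CPM in the other 5 libraries. The part of other cells in these values was not tested. Itgb8, an integrin subunit that binds latent TGF-beta, was higher without overlap but at most 3.80 CPM. The integrin subunit Itgav was also higher without overlap (log2 fold change 0.35, SE 0.20), beside 13.3% of all genes. It measured 62.6, 98.1 and 98.3 CPM in wt 1, 2 and 3 and 104, 125 and 101 CPM in knockdown 1, 2 and 3. Exons of opposite-strand genes overlap both Thbs1 and Furin.

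All 4 tested genes of the 10 secreted antagonists had higher estimates, with 0 called. Dcn (decorin), Fstl3 and Grem1 (gremlin) had log2 fold changes of 1.49 (SE 0.93), 1.33 (SE 0.61) and 1.23 (SE 0.95). Dcn is itself among the fibroblast markers, and all 3 genes were lowest in wt 1, the library with the lowest fibroblast sum.

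Of 20 genes known to respond to TGF-beta or bone morphogenetic proteins, 19 were tested, with 7 higher, 12 lower and 0 called, and a median log2 fold change of -0.17. Smad7 and Tgfbi, both in this list, thus lay on opposite sides of 0. Beside Tgfbi, the groups did not overlap for Id3, Id1 and Acta2, which were lower (12.6% of all genes). Smad7 was higher without overlap (13.3% of all genes). Id3, an inhibitor of helix-loop-helix factors, measured 57.5, 96.2 and 64.9 CPM in wt 1, 2 and 3 and 47.2, 39.8 and 36.9 CPM in knockdown 1, 2 and 3 (log2 fold change -0.82, SE 0.21, adjusted p = 0.328 in edgeR). The log2 fold change of Id1 was -0.58 (SE 0.20), and that of Acta2, smooth muscle actin, was -0.63 (SE 0.22). The most abundant genes, Junb (637 FPKM), Fn1 (469 FPKM) and Id2 (423 FPKM), had estimates of -0.33 (SE 0.17), -0.48 (SE 0.25) and -0.17 (SE 0.14). Col1a1 and Col3a1, also fibroblast markers, had higher estimates of 1.82 (SE 0.64) and 1.01 (SE 0.85), with groups that overlapped. Col1a1 was at most 5.52 CPM.

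Gdf15, a distant member of the superfamily that cells release under stress, did not differ detectably. It measured 10.9, 7.30 and 8.31 CPM in wt 1, 2 and 3 and 7.61, 9.79 and 6.10 CPM in knockdown 1, 2 and 3. The groups overlapped, and the log2 fold change was -0.18 (SE 0.26, 95% interval -0.77 to 0.42, adjusted p = 0.698 in edgeR), against 0.44 with marker scaling. Of 12 genes of the stress response with which Gdf15 is known to rise, 11 were tested, with 8 higher, 3 lower and 0 called. The groups did not overlap for Atf4 (log2 fold change 0.47, SE 0.15), Asns (0.80, SE 0.30) and Gadd45a (0.31, SE 0.12), all of which were higher in the libraries labelled knockdown. Of all genes tested, 13.3% were higher without overlap. Atf4, the central transcription factor of this response, measured 361, 317 and 305 CPM in wt 1, 2 and 3 and 464, 515 and 386 CPM in knockdown 1, 2 and 3. Atf3 and Ppp1r15a, the other abundant genes, had log2 fold changes of 0.01 (SE 0.19) and 0.16 (SE 0.16).

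**Figure D4:**
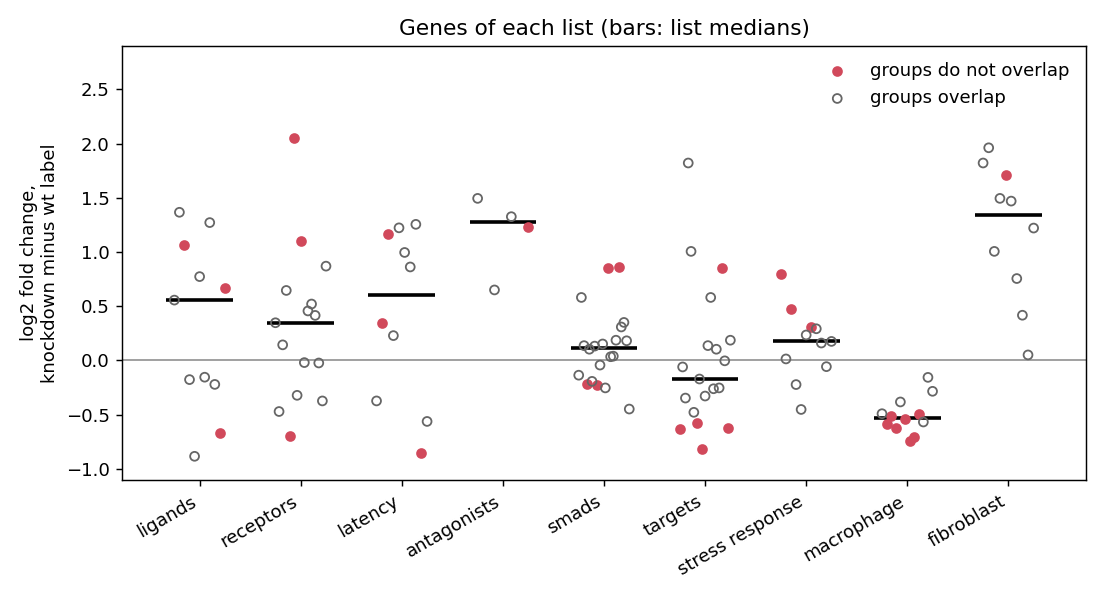
Log2 fold change, labelled knockdown minus labelled wt, of each tested gene in 7 lists of the pathway and 2 lists of cell type markers. Filled points are genes whose groups do not overlap, and black bars are list medians, below 0 for the macrophage markers and the targets and above 0 for the other lists.

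Libraries wt 1 and knockdown 3 were left out together because earlier results of these data had used the other 4. Knockdown 3 was no outlier but the library labelled knockdown nearest to wt on the first principal component (11.7, against 41.4 and 52.0), so that leaving it out moves the mean of its label away from wt on that component, and the following calls are given as values only. Without wt 1 and knockdown 3, DESeq2 called 4 of the 9 tested members, against 10.6% of the genes it tested. Smad7 (log2 fold change 1.00, SE 0.22, adjusted p = 6.47e-04), Tgfb1 (-0.72, SE 0.17, adjusted p = 0.00215), Inhba (-0.68, SE 0.17, adjusted p = 0.00313) and Tgfbi (-0.73, SE 0.19, adjusted p = 0.00480) passed in DESeq2. Tgfb3, with a log2 fold change of 0.53 (SE 0.24, adjusted p = 0.148 in DESeq2), did not pass. On the same 4 libraries edgeR called 0 members, with an adjusted p between 0.101 and 0.125 for the 4 genes that DESeq2 called. These calls thus rest on leaving out 2 libraries and on the tool together.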

How the data were processed

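RNA of 6 libraries, 3 labelled wt and 3 labelled knockdown, was analysed. The files deposited by the authors hold raw whole-number counts for each gene beside FPKM. For 12251 of the 12251 genes with at least 10 counts in every library, dividing counts by FPKM and by the library total gave a single length, to a relative tolerance of 1e-06. The submitters' processing notes name the build mm10 (GRCm38). The aligner, the counting tool and the annotation are not given in the sources used here. Per the labels, RNA was extracted with TRIzol from tumor tissue and enriched for small RNAs, whereas the methods describe sorted macrophages and a low-input cDNA kit, and these accounts were not reconciled. Coordinates come from GENCODE vM21 on GRCm38. Beside the genes stated above, exons of opposite-strand genes overlap Tgfb2, Acvrl1, Acvr2a, Eng, Fstl3, Zfyve9, Junb, Fn1, Gadd45a and Ppp1r15a.

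After filterByExpr and TMM scaling, libraries were compared with the quasi-likelihood test of edgeR 4.0.16 (R 4.3.3), with no block, Benjamini-Hochberg adjustment over all genes tested and a threshold of 0.05. The SE was taken as the size of the log2 fold change over the root of its F value, and intervals are 95%. Mean marker levels used log2 CPM with a prior count of 2. DESeq2 1.42.0, limma 3.58.1 and other scalings and filters served as alternatives. The tests were tried on simulated data. Members and lists were chosen with earlier results of these data known. From each pathway list, the genes named beyond the members were the 3 with the smallest unadjusted p and the 3 with the highest mean FPKM. Bmp2, Col1a1, Col3a1, Itgav, Krt8 and Ltbp1 to Ltbp4 were named after their values were seen. The labels number the libraries as biosamples and give no batch, whereas a figure legend of the study gives fewer mice per genotype than there are libraries per label. Whether each library is a separate mouse is therefore uncertain, n counts libraries, and p-values measure the spread between these samples. Libraries of the same label differed by a chi-square value per gene of at least 33.6, so none appeared to be a copy of another.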

Additional observations from a re-analysis of the deposited data

How the results depend on the processing

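Counts of called genes (0) and called members (0) in edgeR stayed 0 with RLE or upper quartile scaling, other filters, the replicate block, marker scaling and limma on log2 FPKM plus 1 or plus 0.1, and DESeq2 called 36 genes over 6 libraries. DESeq2 without wt 1 and knockdown 3 called 1283 genes and 4 members. The cause was not tested. With 1 library left out, or these 2 together, edgeR called 0 genes and 0 members. The members with groups that do not overlap numbered 5 over 6 libraries and 2 with marker scaling, where 35.9% of all genes were higher without overlap. Counts with libraries left out are not compared, since smaller groups overlap less often.

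Over 17 alternatives for each of 9 members, 134 of 153 estimates kept their direction, including all of Tgfb1, Tgfb3, Tgfbi and Smad7. Signs turned as follows. Tgfbr1 became 0.017 with upper quartile scaling, 0.0063 with at least 10 counts in every library, 0.11 and 0.12 in limma, 0.064 without wt 3 and 0.050 without knockdown 1, and its range with 1 library left out was -0.14 to 0.064. Inhba became 0.18 and 0.23 in limma, 0.061 with the replicate block, 0.15 without wt 2 and 0.044 without wt 3, with a range of -0.64 to 0.15 in edgeR with 1 or 2 libraries left out, and -0.68 in DESeq2 without wt 1 and knockdown 3. Gdf15 lay between -0.38 and 0.0010 with 1 library left out, the latter without wt 1, and without wt 1 and knockdown 3 it was 0.15 in edgeR and 0.12 in DESeq2. Marker scaling gave Tgfbr1 0.56, Tgfbr2 0.23, Inhba 0.36, Smad3 0.33 and Gdf15 0.44, each below the median of all genes under that scaling, 0.58, and limma with 0.1 moved that median to 0.16. The replicate numbers showed no sign of pairing the libraries (correlations of deviations -0.24, 0.06 and -0.34). Deviations from means of 3 libraries, with wt 1 apart, cannot exclude a pairing. Counting error limits only Tgfb2 and other genes of few counts, and a count of 0 would allow 3 counts.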
